A study of Arabidopsis thaliana with 124 samples.

Results

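The regions described here are places in the Arabidopsis thaliana genome where transcription factors bound far from any protein-coding gene. The peaks of 42 ChIP-seq peak lists that overlapped by at least 1 bp were merged into 21939 regions. A region was counted as far when every peak summit in it lay more than 2000 bp from the nearest protein-coding gene. Of the 21939 regions, 1088 met this rule and 20851 did not. The far regions held 9932 of the 326698 deposited peaks.

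The lists came from whole seedlings of the Col-0 accession, kept dark until 3 days old and then exposed to 10 µM abscisic acid (ABA) or to ethanol alone (mock) for 4 h. Every line carried a transcription factor tagged with the fluorescent protein YPet by recombineering, so the mock seedlings carried the tag too. Chromatin was precipitated with an antibody against GFP, which binds YPet. The 21 factors comprised 5 bZIP proteins (GBF2, GBF3, ABF1, ABF3 and ABF4), 4 HD-ZIP proteins (HAT22, HB5, HB6 and HB7) and 3 NAC proteins (RD26, ANAC032 and ANAC102). They also included NFYB2 and NFYC2 of the NF-Y complex, MYB44 and MYB3, AT5G04760 (a MYB-related protein), DREB2A, HSFA6A, ZAT6 and FBH3. There were 3 libraries per treatment for 19 factors and 2 per treatment for ANAC102 and ZAT6. The libraries of a group had been pooled into 1 list, so the spread between replicates cannot be seen and the unit of every test below is the factor. The 2 libraries of untagged Col-0 chromatin are both labelled as ABA-treated, and which lists were made against them is not given. Whole seedlings mix many cell types, and neither the number of independent lines per factor nor the read depth of a list is known here.

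ABA is the hormone by which plants answer drought and control seed dormancy. When it binds its receptors, protein kinases are freed that phosphorylate the ABF factors, and these bind ABA-responsive elements near their target genes. Arabidopsis has a compact genome in which most regulatory sequence lies close to genes. Regions far from genes can hold distant regulatory sequence, promoters of microRNA and other noncoding genes, or remnants of transposable elements.

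Strongest summits of regions were sparse on ground far from genes. How much of that ground reads could be placed on is not known here. On the gene table used, 18.0% of the span between the first and last gene of the chromosomes (21.5 Mb) lay more than 2000 bp from a protein-coding gene, but 6.27% of the 21939 regions had their strongest summit there. That is 64 strongest summits per Mb, against 421 per Mb within 1000 bp outside a gene, 176 per Mb at 1001 to 2000 bp and 136 per Mb inside genes. The far regions had a median width of 846 bp and the other regions one of 1077 bp. From the nearest summit to the nearest gene, the median distance of the far regions was 3196 bp. In 498 of them it was 2001 to 3000 bp, in 318 it was 3001 to 5000 bp, in 170 it was 5001 to 10000 bp, in 65 it was 10001 to 20000 bp and in 37 it was larger. The rule asks for every summit, so a region with many peaks has more chances to fail it, and this bears on several results below.

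The 3 regions on either side of the limit of 2000 bp held 1 to 6 factors under ABA. The 3 far regions closest to it, at 2001, 2002 and 2003 bp, each held a peak of a single factor under ABA. They lay at chr1:7527550-7527837 and chr3:18725399-18725903 with GBF3 peaks and at chr1:10451553-10452718 with a ZAT6 peak, and the second of them also held a GBF3 peak under mock. The 3 regions just outside it, at 1999, 1997 and 1997 bp, held 3, 6 and 1 factors under ABA and 1 factor each under mock. They lay at chr1:25682007-25682651, chr1:21386326-21388776 and chr5:8713423-8714410.

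Factors were found at more far regions after ABA than after mock, and the ratio was not shown to differ from that elsewhere in the genome. Among factors with any far region under mock, the ratio was highest for ANAC032, a stress-induced NAC protein, with 238 far regions under ABA and 19 under mock. HB7, an ABA-induced HD-ZIP protein, had 360 under ABA and 84 under mock, and ABF1 had 241 and 48. DREB2A, a factor of drought and heat responses, and HSFA6A, a heat shock factor, had 35 and 32 far regions under ABA and none in their mock lists, which hold 14 and 32 regions in all. A count of 0 in lists that short allows a share of far regions of up to 21.4% for DREB2A and 9.38% for HSFA6A (3 counts of the total). The numbers were close for GBF2 (313 under ABA, 302 under mock), HB6 (295 and 255), AT5G04760 (286 and 239) and ABF3 (306 and 246). Fewer far regions under ABA were found for FBH3, a bHLH activator of CONSTANS, with 3 under ABA and 22 under mock, and for HB5, with 286 and 306.

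**Figure D1:**
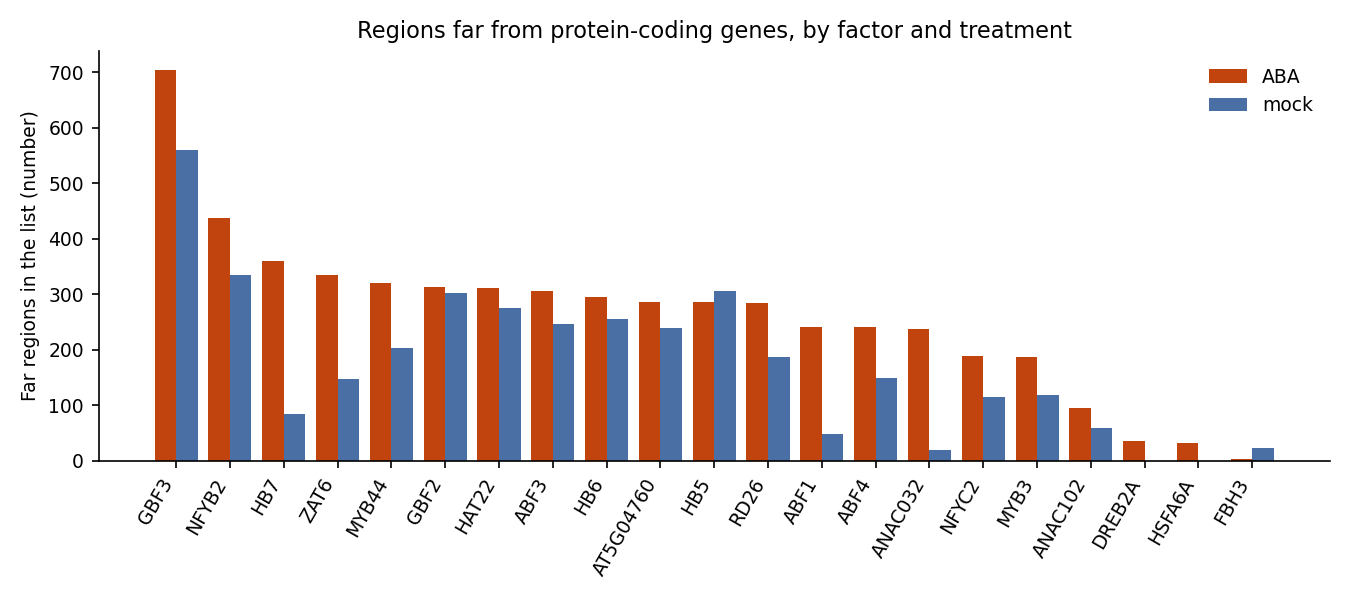
Number of far regions in the ABA list (left bar) and the mock list (right bar) of each of the 21 factors, ordered by the ABA number. GBF3 and NFYB2 have the most far regions under both treatments (GBF3 704 and 561, NFYB2 438 and 335), and FBH3 and HB5 are the 2 factors with fewer under ABA.

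Over the 21 factors, the log2 ratio of far regions under ABA to those under mock, with 0.5 added to each number, averaged 1.16 ± 2.01 (SD, n = 21) and was positive for 19 factors. A two-sided sign-flip permutation test over factors gave p = 0.00783 (0.0117 after Benjamini-Hochberg adjustment over the 6 tests made here). The mean is raised by DREB2A and HSFA6A, whose mock numbers are 0, so that the added 0.5 sets their ratios. The median over the 21 factors was 0.65, and without these 2 factors the mean was 0.64 (permutation p = 0.0317, n = 19). For the other regions the same ratio averaged 1.10 ± 1.96. The ratio in far regions exceeded that in other regions by 0.06 ± 0.25, a difference that did not pass the test (permutation p = 0.282). The 2 lists of a factor differ in length, and these ratios are not adjusted for it. In a further setting, the longer list of each factor was reduced to as many of its strongest peaks as the shorter one held. The far ratio then averaged -0.02 (permutation p = 0.421). Lists of equal length put it near 0 by construction, so this value cannot decide whether far binding changed. With the full lists and 10 family means as units, the far ratio averaged 1.51 (p = 0.117, exact permutation test).

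The share of a list that fell in far regions varied between factors. Among the 19 factors with at least 100 regions in both lists, the share averaged 3.26% ± 0.73 under ABA and 3.12% ± 0.75 under mock (SD, n = 19). The paired difference of 0.13 ± 0.46 percentage points did not pass the test (permutation p = 0.222). Under ABA it ran from 1.56% for FBH3 to 5.22% for GBF3, and under mock from 2.12% for ABF1 to 4.62% for GBF3. GBF3, a G-box-binding bZIP protein, thus had the highest share under both treatments, with 5.22% of its ABA regions (95% Wilson interval 4.85 to 5.60%) and 4.62% of its mock regions (4.26 to 5.01%). HAT22 followed with 4.07% under ABA (3.65 to 4.54%) and 4.44% under mock (3.96 to 4.98%). ABF1 had 3.34% under ABA (2.95 to 3.79%) and 2.12% under mock (1.60 to 2.80%), and these 2 intervals do not overlap. The intervals cover counting error alone. With the limit at 1000 bp instead of 2000 bp the difference was 0.42 points (permutation p = 0.011), and when the strongest summit alone decided membership it was -0.42 points (permutation p = 0.0142), so its direction depends on how far regions are defined.

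**Figure D2:**
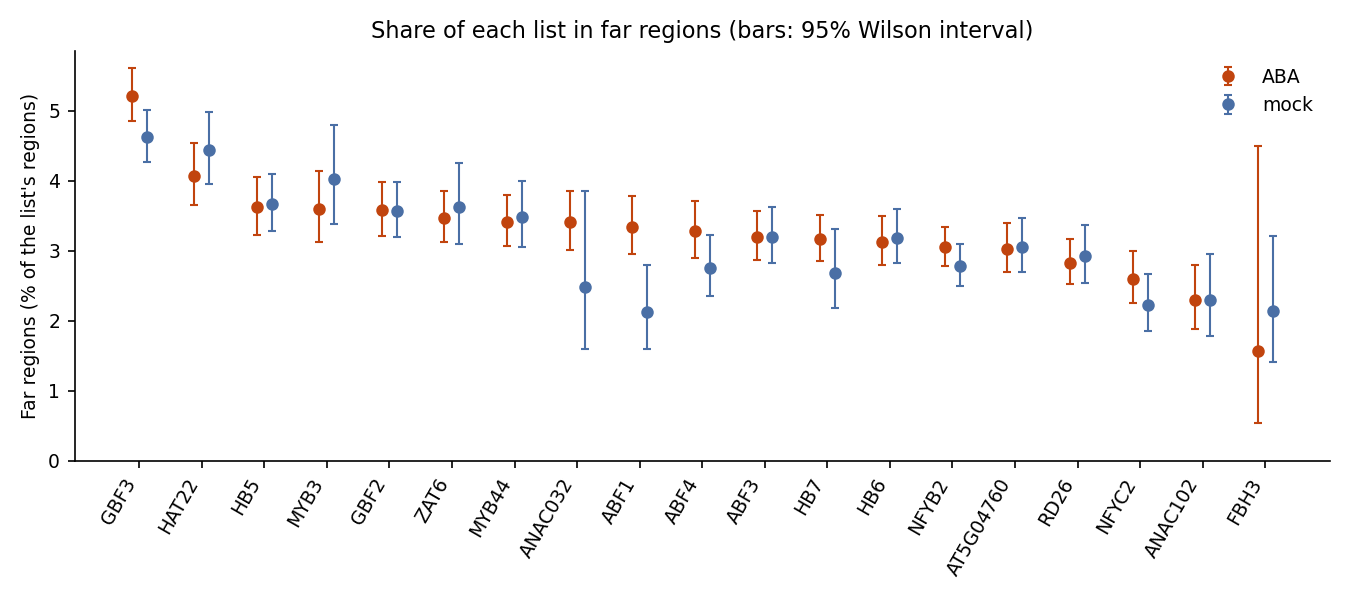
Percent of the regions in each ABA list (left point) and mock list (right point) that were far, for the 19 factors with at least 100 regions in both lists, with 95% Wilson intervals as bars. GBF3 lies highest under both treatments, at 5.22% and 4.62%, and ABF1 is a factor whose 2 intervals do not overlap.

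Far regions, by a rule that regions with many peaks fail more easily, were bound by fewer factors than other regions. The median far region held 2 factors under ABA and 1 under mock, against 6 and 3 in other regions. A peak of 1 factor alone, in either or both of its lists, made up 430 far regions (39.5%), against 4462 other regions (21.4%). With the strongest summit of a region deciding membership, the share in far regions was 31.4%. At least 15 factors under ABA were found at 121 far regions (11.1%) and at 4348 other regions (20.9%). No far region held all 21 factors under ABA. Within the far regions, binding by 1 factor was more frequent at larger distances. Its share was 32.3% at 2001 to 3000 bp, 32.7% at 3001 to 5000 bp, 51.2% at 5001 to 10000 bp, 72.3% at 10001 to 20000 bp and 83.8% of 37 regions beyond that.

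**Figure D3:**
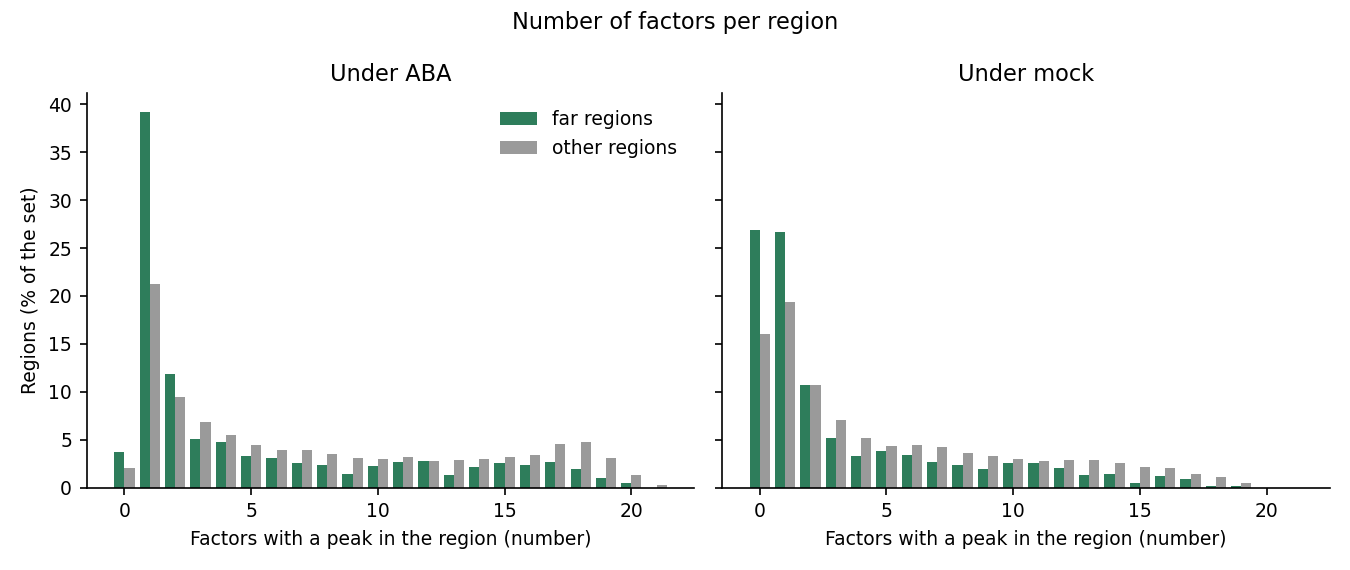
Percent of the far regions and of the other regions that held a peak of 0 to 21 factors, under ABA (left panel) and mock (right panel). Under ABA 39.2% of the far regions held a single factor, against 21.3% of the other regions, and the second rise of the other regions near 18 factors is lower in the far regions.

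Factor by factor, a far region of a factor under ABA held 10.98 ± 1.86 other factors and another region of that factor held 12.30 ± 1.50 (mean and SD over the 20 factors with at least 10 far regions under ABA). The difference of -1.31 ± 0.84 had the same sign for all 20 factors (permutation p = 1e-05, the smallest that 100000 resamples can give). It ranged from -0.08 for HSFA6A to -3.73 for GBF3. Peaks in far regions also ranked lower in their lists. The mean percentile of −log10 p, where 100 is the strongest peak of a list, was 44.8 ± 3.5 in far regions and 50.2 ± 0.1 in other regions, a difference of -5.35 ± 3.61 (permutation p = 1e-05, lower for 20 of 20 factors). Both results rest on the rule: with membership set by the strongest summit of a region, which does not penalise regions with many peaks, co-binding was 0.64 factors higher in far regions (permutation p = 0.00165) and the percentile differed by -0.69 (permutation p = 0.451). With summits within 200 bp joined in place of overlapping peaks, co-binding differed by -0.36 (permutation p = 0.00741). With each peak classed by its own summit, the percentile differed by -0.33 (permutation p = 0.734).

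Binding found under a single treatment made up more of the far regions than of all regions, but the shares were close among regions with 1 factor. GBF3 was the factor most often present in far regions of this kind. Peaks under ABA with none under mock in any list marked 293 far regions (26.9%), against 16.6% of all regions, and peaks under mock with none under ABA marked 41 (3.77%), against 2.11%. These shares fell with the number of factors in a region, in far and in all regions. Regions with 1 factor made up 39.5% of the far regions and 22.3% of all regions. Of the far regions with 1 factor, 54.7% were found under ABA alone, against 52.0% of all regions with 1 factor. For 2 to 4 factors the shares were 18.4% of far and 18.2% of all regions, for 5 to 9 factors 5.52% and 4.10%, and for 10 or more factors 1.16% (3 far regions) and 0.264% (21 regions). Found under mock alone were 7.91% of the far and 8.24% of all regions with 1 factor, and 2.75% (7 far regions) and 1.20% of those with 2 to 4. GBF3 was present in 160 of the 293, ZAT6 in 50, RD26 in 34, NFYB2 in 33 and HB7 in 31. In the 58 of them with 2 or more factors the order was ZAT6 (32), RD26 (28), HB7 and NFYB2 (19 each), then ABF1, ANAC032 and GBF3 (13 each). ZAT6 is a zinc finger protein and RD26 a NAC protein, both induced by drought-type stress. Among the 41 regions seen under mock alone, GBF3 was present in 15, HB5 in 12, and HAT22 and RD26 in 6 each. The factors were not counted in the same way over all regions found under one treatment alone. These counts therefore do not show what is particular to far regions. GBF3 was present at 63.8% of all regions and was the single factor at 44.8% of all regions with 1 factor. With both lists of a factor cut to the same number of strongest peaks, the share found under ABA alone was 13.9% of 995 far regions, and without GBF3 it was 24.1% of 858. The GBF3 ABA list begins at a −log10 p of 17.98 and its mock list at 16, and the NFYB2 lists begin at 19.25 under ABA and 17.58 under mock, so these 2 factors were compared at unlike limits.

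Mock binding far from genes was kept under ABA slightly less often than elsewhere. Over the 19 factors with at least 10 far regions under mock, 88.7% ± 19.2 of a factor's far mock regions also held its ABA peak, against 92.1% ± 18.8 of its other mock regions. The difference of -3.38 ± 3.83 points passed the test (permutation p = 0.00016, 0.00032 adjusted over 6 tests) and was negative for 15 of 19 factors. RD26 had the widest difference, with 142 of 186 far regions kept (76.3%, 95% Wilson interval 69.7 to 81.9%) and 90.3% of the others. FBH3 kept 3 of 22 far regions (13.6%, 4.75 to 33.3%) and 15.7% of the others. Those 22 regions were not emptied under ABA: they held 9 to 19 factors under mock and 13 to 20 under ABA. With the strongest summit deciding membership the difference was -0.57 points (permutation p = 0.183).

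Region by region, more far regions held more factors under ABA than held fewer. More factors under ABA than under mock were found at 737 far regions (67.7%), against 77.3% of all regions, and fewer at 93 (8.55%), against 5.82%. At least 5 more factors under ABA were found at 136 far regions (12.5%), against 19.4% of all regions, and at least 3 fewer at 4 (0.368%), against 0.511%. In the 136 regions with the larger gains, HB7 had an ABA peak and no mock peak at 112 (82.4%, against 80.7% of all 4256 regions with such gains). ANAC032 did so at 103 (75.7%, against 67.0%), ZAT6 at 86 (63.2%, against 67.2%), ABF1 at 85 (62.5%, against 57.4%) and RD26 at 71 (52.2%, against 47.8%). These 5 factors also led among all regions with such gains, and the shares were not tested against each other. GBF3 had an ABA peak and no mock peak at 16 (11.8%, against 8.81%) and had peaks under both treatments at 99.

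The 10 far regions with most factors under ABA each held 19 or 20 factors and were 1478 to 7006 bp wide. They were picked by that number, and a region merged from more overlapping peaks can be wider. A region at chr2:15096832-15101392 lay between BLH1, a BEL1-like homeodomain protein, and EDA12, with its strongest summit 4835 bp from EDA12. It held 20 factors under ABA, all but FBH3, and 19 under mock. The percentiles of its ABA peaks in their own lists had a lowest value of 10.2, a median of 97.2 and a highest of 99.96, and those of its mock peaks 43.1, 91.7 and 99.97. Most factors thus had one of their stronger peaks there. A region between ERF8, an ethylene response factor, and AT1G53180 (chr1:19824577-19826574) held 20 factors under ABA and 17 under mock. So did a region between CMT3, a DNA methyltransferase, and ATHB13, an HD-ZIP protein (chr1:26255702-26257181). Between AT2G19802 and OZF1 (chr2:8542157-8546727) there were 20 under ABA and 16 under mock, between AT5G49665 and AT5G49680 (chr5:20172171-20174752) 20 and 15, and between AT5G47050 and AT5G47060 (chr5:19110280-19114055) 20 and 12.

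A far region 7006 bp wide lay between TIP2, an aquaporin of the vacuolar membrane, and AT3G26539 (chr3:9736178-9743183). It held 19 factors under ABA and 18 under mock, and the strongest peak of the whole AT5G04760 mock list. Another lay between AT3G30165 and BR6OX2, an enzyme of the last steps of brassinosteroid synthesis (chr3:11801520-11805217). It held 66 peaks, of 19 factors under ABA and 17 under mock. The 2 remaining regions of the 10 with most factors lay between AT1G29640 and AT1G29660 (chr1:10362868-10367295) and between AT1G32660 and AT1G32690 (chr1:11816017-11817494), each with 19 factors under ABA and 17 under mock. Among the 121 far regions with at least 15 factors under ABA, the median distance to the nearest gene was 3015 bp, against 3238 bp in the other far regions, and the median width was 2463 bp. Only 9 of the 121 lay in the gene-poor parts described below, and 33 of them also held at least 15 factors under mock.

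Several factors had one of the strongest peaks of their whole list far from genes, and a few places gathered them. The region between BLH1 and EDA12 held the strongest far ABA peak of DREB2A, HB5, HB6, HB7, NFYB2, RD26 and ZAT6. The HB7 peak there ranked 7 among 13565 ABA peaks of that factor and the HB5 peak 10 among 9558, while the DREB2A peak ranked 236 among 1517. NFYB2, a histone-fold subunit of the CCAAT-binding complex, had there its peak of rank 9 among 18096, with a fold enrichment of 11.86 in the authors' list. The region between AT1G29640 and AT1G29660 held the strongest far ABA peaks of ABF3 (rank 4 among 11273), MYB44 (rank 114 among 11479) and HSFA6A (rank 97 among 1861). The AT5G04760 peak between TIP2 and AT3G26539 ranked 2 among 11172.

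The strongest far ABA peaks of ABF1, ABF4, GBF2 and GBF3 all lay at chr1:15879305-15882929. This region was 10692 bp from the nearest gene, AT1G42430, in a bin of 1 Mb with 19 protein-coding genes. The GBF3 peak had the highest −log10 p of its list, 141.89, which it shared with other peaks to a total of 40. The ABF4 peak ranked 11 among 8774, the GBF2 peak 20 among 10724 and the ABF1 peak 80 among 8512. In all, 17 factors were found there under ABA and 14 under mock. All 4 of these factors are bZIP proteins, though ABF3 had its own highest far peak elsewhere. ANAC032 (rank 77 among 7977) and ANAC102 (rank 63 among 4793) shared a summit position, 10143821, in a region between TBL38 and AT1G29060 (chr1:10142573-10144632).

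The remaining factors had their strongest far ABA peaks at places of their own. NFYC2 had its peak of rank 5 among 8390 between AT3G29800 and COBL2 (chr3:11724579-11726196), a region with 18 factors under ABA and 13 under mock. HAT22 had rank 33 among 9465 between AT2G04750 and FLA7 (chr2:1669045-1669811), with 15 and 8. MYB3 had rank 22 among 6213 between AT5G25270 and AT5G25280 (chr5:8767429-8769498), with 18 and 13. FBH3 had rank 44 among 194 between AT1G52603 and AT1G52618 (chr1:19599831-19601005), with 16 and 9. Of the 21 peaks, 19 had a mock peak of the same factor in the same region, and the exceptions were DREB2A and HSFA6A.

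The gap between CYP71A16 and MRN1 stood among the regions with the largest gain of factors. MRN1 makes the triterpene marneral and CYP71A16 oxidises it, and the genes are neighbours in a metabolic gene cluster. The gap of 19.7 kb held 6 far regions, the most found in any gap. The region nearest MRN1 (chr5:17046646-17049814, 4709 bp from it) held 12 factors under ABA and 1, GBF3, under mock. The ABA peaks had percentiles from 35.4 to 84.0 with a median of 55.2, so they were of middling to high rank in their lists, and the GBF3 mock peak had 23.5. The other 5 regions of the gap were looked at after their values were seen. From CYP71A16 towards MRN1 they held 3, 4, 12, 10 and 16 factors under ABA, against 0, 1, 3, 2 and 7 under mock. HB7, RD26 and ZAT6 were present under ABA in all 6 regions, and under mock ZAT6 was present in 1 of them, RD26 in 1 and HB7 in none. The lists of these factors were longer under ABA genome-wide. HB7 had 11372 regions under ABA and 3125 under mock, RD26 had 10041 and 6367, and ZAT6 had 9623 and 4048. A noncoding transcript of the type misc_RNA, AT5G00580, overlapped at least 1 summit of the region nearest MRN1.

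Other far regions gained as many factors. Near PMAT2, which adds malonyl groups to phenolic glucosides (chr3:11524482-11525467, 2512 bp from it), 16 factors were found under ABA and 1, GBF3, under mock. A region between AT2G26690 and AT2G26695 (chr2:11355679-11360002) held 19 under ABA and 8 under mock, and one between AT2G43140 and AT2G43150 (chr2:17938583-17944012) held 16 and 5. Near SDR4, a short-chain dehydrogenase (chr3:11199092-11201253), there were 12 under ABA and 1, again GBF3, under mock. In 3 regions 11 factors were found under ABA and none under mock. They lay between AT1G63810 and AT1G63820 (chr1:23678176-23679725), between AT3G30460 and AT3G30520 (chr3:12124319-12126262) and between the ABC transporter genes ABCB15 and ABCB16 (chr3:10602084-10603051). HB7, HAT22, NFYB2, RD26, ZAT6, ABF1, ABF3 and ABF4 were among the 11 in each of these 3. Their peaks had median percentiles of 44.3, 39.6 and 42.4. The percentiles ran from 0.917 to 86.7 in the first region, 8.65 to 85.5 in the second and 10.2 to 56.7 in the third.

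Losses were few and of low-ranked peaks. Only 4 far regions held at least 3 factors fewer under ABA. A region between AT2G14945 and GH3.1 (chr2:6443334-6444701) held 2 factors under ABA and 5 under mock, and the mock peaks had a median percentile of 5.22. Regions beside UCN, a protein kinase that restrains growth (chr1:18958509-18959722), between AT1G28120 and GH3.17 (chr1:9819110-9819919), and between GA20OX3 and RR21 (chr5:2247070-2248325) held no factor under ABA and 3 under mock. Their mock peaks had median percentiles of 13.3, 25.8 and 1.60. HB5 was among the 3 factors in each. GH3.1 and GH3.17 conjugate auxin to amino acids, GA20OX3 makes gibberellin and RR21 is a response regulator of the cytokinin type.

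Some genes of ABA synthesis and breakdown had far regions beside them. In a list of 13 genes that make or break down ABA, 4 were the nearest gene to a far region, against 3.22% of all 27444 protein-coding genes of the table. NCED5, which like the other NCED enzymes cleaves carotenoids in the rate-limiting step of ABA synthesis, lay 3943 bp from the strongest summit of a region with 15 factors under ABA and 5 under mock (chr1:10575943-10578775). Its ABA peaks had a median percentile of 59.9 and its mock peaks one of 49.1. ABF1, ABF3, ABF4, RD26 and HB7 were among the 15, and ABF3, ABF4, GBF2, GBF3 and NFYB2 were the 5. CYP707A3, an ABA hydroxylase that inactivates the hormone, lay 4299 bp from a region with 14 factors under ABA and 7 under mock (chr5:18374789-18376169), with median percentiles of 59.5 and 11.0. NCED6 (chr3:8765224-8765756) had 4 factors under ABA and none under mock, and NCED2 (chr4:10137208-10139901) had 2 and 1. None of 25 genes for ABA receptors, phosphatases, kinases and ABI factors, and none of the 21 factors' own genes, was the nearest gene of a far region. With 3.22% of all genes nearest to one, lists of this size can hold none without standing apart, and the lists were not tested against each other.

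Auxin, drought and meristem genes had far regions of mixed breadth. Of 14 genes of auxin transport and synthesis, 4 were nearest to a far region. AUX1, the auxin influx carrier, had one with 16 factors under ABA and 11 under mock, 3164 bp away (chr2:15968424-15970687), and another with 5 and 6 (chr2:15966087-15967766). Many of these peaks were of low rank. Median percentiles were 33.3 under ABA and 37.5 under mock in the first region, and 15.2 and 26.6 in the second. YUC6 and YUC1, enzymes of auxin synthesis, had regions with 2 factors under ABA each, and 2 and 1 under mock (chr5:8941094-8942215 and chr4:15697497-15698571). The ABA peaks there had median percentiles of 33.4 and 13.8. Of 16 genes of the dehydration and cold response, RD22 was the 1 with far regions, in a gap shared with YUC6. One of them (chr5:8922929-8924628, 6685 bp from RD22) held 10 factors under ABA and 7 under mock, and its NFYB2 ABA peak stood at percentile 98.8. The other (chr5:8921629-8922386) held ANAC032 and MYB44 under ABA and MYB44 under mock.

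Of 20 meristem and flowering regulators, 4 were nearest to a far region. STM, which keeps shoot meristem cells undifferentiated, had a region with 13 factors under ABA and 8 under mock, 3735 bp away (chr1:23065008-23066768), of low rank in most lists with median percentiles of 25.5 and 13.1. PLT2, a factor of the root stem cell niche, had one with 11 and 7, 3188 bp away (chr1:18972702-18975493), with medians of 55.0 and 58.7. PLT1 (chr3:7293905-7294816) had 2 factors under ABA and none under mock, and AS2 (chr1:24403227-24403667) had 1, AT5G04760, under mock alone. All 4 lists with hits span few genes, so the shares are descriptions. The lists were compared by counts alone, and long intergenic gaps, which make a far region possible, were not equal between them.

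GBF3 stood apart from the other factors in where its far regions lay. It was the single factor at 278 of the 430 far regions with 1 factor (64.7%), although it made up 44.8% of all regions with 1 factor. NFYB2, with 34 of the 430, made up 7.91% of those and 22.3% of all regions with 1 factor. Of the 278, 147 were found under ABA alone, 11 under mock alone and 120 under both. GBF3 was present in either list at 744 far regions (68.4%), against 63.8% of all regions. Every other family was found at a smaller share of far regions than of all regions, and the 4 other bZIP factors together reached 41.0% of the far regions and 52.9% of all regions. The share of far regions with GBF3 was 61.0% at 2001 to 3000 bp from the nearest gene, 72.3% at 3001 to 5000 bp, 74.1% at 5001 to 10000 bp, 81.5% at 10001 to 20000 bp and 83.8% beyond. The 5 far regions farthest from genes, at 50893 to 126095 bp, each held GBF3 and no other factor. Their strongest peaks were of low to middling rank, at percentiles from 9.71 to 47.1. Only the one at chr3:13965163-13965552 held a GBF3 peak under mock as well as under ABA.

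In the gene-poor parts of the chromosomes GBF3 had more far regions than any other factor. In 15 of 121 bins of 1 Mb there were fewer than 100 protein-coding genes, where the median bin had 259. These bins held 222 far regions (20.4%) and 2.78% of all regions. Bins with few genes have more ground that the rule can count as far, so a higher share of far regions follows from the rule. GBF3 had 172 far regions there under ABA and 103 under mock, NFYB2 had 49 and 36, and GBF2, its close relative, had 40 and 38. GBF3 was present in 177 of the 222 and was the single factor in 120 of them. Its 172 gene-poor regions are 24.4% of its far regions under ABA, against 12.8% for GBF2 and 11.2% for NFYB2. With peaks of a −log10 p of at least 32 in every list, GBF3 had 107 under ABA and 52 under mock there, GBF2 had 20 and 23, and GBF3 was the single factor at 180 of the 315 far regions with 1 factor. No test was made, since the regions of a list are not replicates. The GBF3 peaks in far regions had a median fold enrichment of 2.70 under ABA, against 3.10 in its other regions, in the authors' list. Of the gene-poor far regions, 21 held 10 or more factors.

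**Figure D4:**
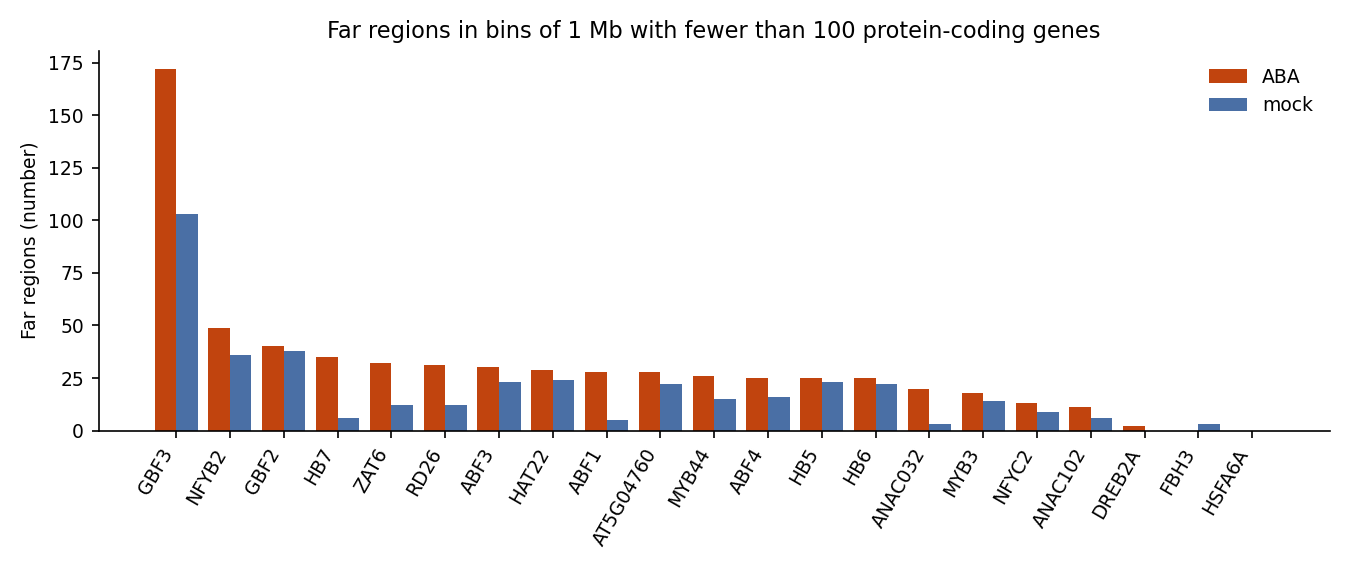
Number of far regions of each factor in bins of 1 Mb with fewer than 100 protein-coding genes, under ABA (left bar) and mock (right bar). GBF3 has 172 under ABA and 103 under mock, and the next factor under ABA, NFYB2, has 49 and 36.

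Far regions lay near some types of noncoding gene more often than all regions did, and near others less often. A summit within 2000 bp of such a gene was found at 557 far regions (51.2%), against 6092 of all regions (27.8%). The widest contrast was in pseudogenes, with 302 far regions (27.8%) and 4.95% of all regions. Transcribed pseudogenes followed with 94 (8.64%, against 3.14% of all). Long noncoding RNA genes were near 178 (16.4%, against 14.8%) and those typed as miRNA near 26 (2.39%, against 1.29%). Genes for tRNA were near 6 far regions (0.551%, against 2.61% of all) and snoRNA genes near 1 (0.0919%, against 0.816%). No far region lay near an antisense RNA gene (0.392% of all) or a snRNA gene (0.378% of all). The far regions near pseudogenes held a median of 1 factor under ABA and 1 under mock, those near lncRNA genes 5 and 2.5, and those near miRNA genes 3.5 and 2.5. A far region has no protein-coding gene near it, so its ground is not the same as that of all regions, and no test was made. Transposable elements are not a type of their own in the table.

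MicroRNA genes beside far regions included those of several conserved families. MicroRNAs are short RNAs that guide the silencing of matching messenger RNAs, and their primary transcripts have promoters of their own. A region near MIR396b, whose product targets growth-regulating factors, held 17 factors under ABA and 17 under mock (chr5:13610970-13617416). It lay between AT5G35405 and SOS2, a kinase of salt tolerance, in a bin with 85 protein-coding genes. Its second copy MIR396a (chr2:4140638-4143199) had 11 under ABA and 6 under mock. MIR393b, which targets the auxin receptors TIR1 and AFB2, had 14 and 11 (chr3:20689108-20691354), in a gap between MYB109 and PROT2. MIR858a, which targets MYB factors of the flavonoid pathway, had 14 and 10 (chr1:26773564-26779607), and MIR5026 had 11 and 6 (chr4:7842284-7844052).

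Of the 10 regions near miRNA genes, the one near MIR157b had the largest difference between the treatments. Its region, 1598 bp away at the nearest summit (chr1:24919043-24919842), held ANAC032, AT5G04760, GBF3, HAT22, HB6, HB7, NFYB2, RD26 and ZAT6 under ABA, 9 in all, and none under mock. The peaks were of low to middling rank, with percentiles from 2.73 to 75.7 and a median of 26.9. MIR157b and MIR156a belong to the family that silences SPL factors and so holds back the change from juvenile to adult growth, and MIR156a had 7 under ABA and 5 under mock (chr2:10676397-10677690). MIR164c (chr5:9850410-9852718), whose family targets NAC factors of the CUC type, had 8 and 2. Its sister MIR164b (chr5:285956-288277) had 6 and 8, with ABF3, GBF2, GBF3 and RD26 under mock alone and ABF4 and MYB44 under ABA alone. Peaks near MIR164b were mostly of low rank, with median percentiles of 9.07 under ABA and 31.3 under mock. MIR160a, which targets auxin response factors, had 7 and 6 (chr2:16338453-16339558). Median ABA percentiles were also low near MIR156a (9.66), MIR160a (14.5), MIR5026 (20.6) and MIR396a (26.9). They were 44.4 near MIR164c, 45.9 near MIR858a, 51.4 near MIR396b and 63.1 near MIR393b. No region near a miRNA gene held DREB2A, HSFA6A or FBH3 among these 10. These factors were found at 3.22%, 2.94% and 2.02% of all far regions, so 10 regions can hold none without standing apart.

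**Figure D5:**
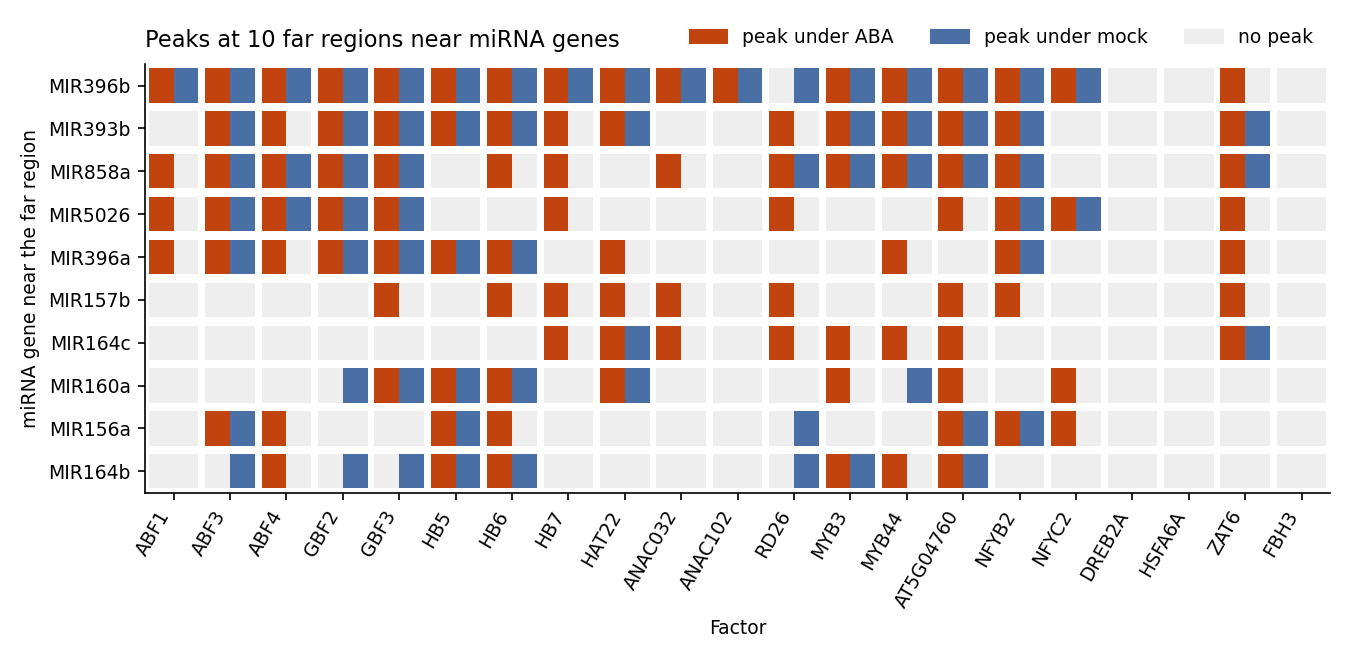
Presence of a peak of each of the 21 factors (columns) at the 10 far regions near a miRNA gene with most factors under ABA (rows), under ABA (left box) and mock (right box). MIR396b has 17 factors under each treatment, differing in ZAT6 (ABA alone) and RD26 (mock alone), and MIR157b has 9 factors under ABA and none under mock.

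The other 16 far regions near miRNA genes held 1 to 6 factors under ABA and 0 to 5 under mock. MIR172b, whose product targets AP2-like factors of flowering, had 6 and 5, with ABF1, ABF4, GBF2, GBF3, NFYB2 and NFYC2 under ABA and the same factors but ABF1 under mock. MIR319b, which targets TCP factors, had 3 and 2, and MIR161 had MYB3 and NFYB2 under ABA and none under mock. A nearby peak says where a factor bound and not which gene it acts on. No sequence under these peaks was used here, so the factors' motifs were not looked for.

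About as many far regions shared a gap between genes as lay alone in one. They lay in 763 gaps between neighbouring protein-coding genes, which is 25.6% of the 2986 gaps over 4000 bp, the shortest that can hold one. In 536 gaps there was 1 far region, and in 227 there were 2 or more, 552 far regions in all. Long gaps have room for more regions, and no test of grouping was made. Besides the gap between CYP71A16 and MRN1, 6 far regions each were found in the gap before NIA2, a nitrate reductase, and in a gap of 62.6 kb between AT5G28237 and AT5G28288 (chosen, like those below, after the values were seen). In the NIA2 gap they held 1 to 7 factors under ABA and 0 to 6 under mock, and in the other 1 to 8 and 0 to 7. A gap between nMAT1 and GA2OX2, an enzyme that inactivates gibberellin, held 5 far regions with up to 12 factors under ABA and a median of 7 under ABA and 6 under mock. By chromosome, far regions made up 5.14% of the regions of chromosome 1, 6.24% of chromosome 2, 4.72% of chromosome 3, 4.22% of chromosome 4 and 4.57% of chromosome 5.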

How the data were processed

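The deposited data are 42 narrowPeak lists, 1 per factor and treatment, in which the authors had pooled the libraries of a group (from the peak names and file names). TAIR10 is the build, and MACS2 2.0.10 and Bowtie 0.12.7 the tools, given per the submitters' processing notes, without the step each served. The authors' −log10 p of each peak ranked and filtered peaks within a list, and the authors' fold enrichment, a ratio, described them. Depth is unknown, since no list gives reads. Groups were taken from sample titles.

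Peaks overlapping by 1 bp were merged. Distances run from summits to genes of an NCBI table of assembly TAIR10.1 (27444 protein-coding genes, no strand). Its positions were checked by shifting summits: the share inside genes was lowest, 33.9%, at no shift and 35.0% at 50 bp. Printed coordinates come from the lists (TAIR10) and count from 1. Gene names and distances come from that table. Tests were two-sided sign-flip permutation tests over factors (exact up to 16 units, otherwise 100000 resamples), in Python 3.11.15 with numpy 2.4.6, pandas 2.3.3 and scipy 1.17.1, tested on simulated data. Their p-values measure the spread between factors, not between libraries, and they treat factors that share regions as separate units. The planned motif search was not run, since no genome was used here.

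The members, gene lists and tests were chosen with earlier results of these data known. Regions were named by a rule: the 10 with most factors under ABA, the 8 with the largest net gain and the 8 with the largest net loss of at least 3 factors, the strongest far ABA peak of each factor, 10 near miRNA genes, up to 4 per gene list, and 3 on either side of the limit. Alternatives changed the distance limit, the genes used, the peak strictness, list length, merging, the factors included, the unit of the test and, after the data were seen, the summit that decides membership.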

Additional observations from a re-analysis of the deposited data

Results flagged for a closer look

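The kept share of mock regions stood out because the ABA and mock comparison differed between far and other regions by its own test. Far mock regions held the same factor's ABA peak 3.38 percentage points less often than other mock regions (-3.38 ± 3.83, n = 19 factors, two-sided sign-flip permutation test, p = 0.00016, negative for 15 of 19 factors). Leaving out each factor in turn gave -3.60 to -2.79. With both lists of a factor cut to the same number of strongest peaks it was -6.59, and with the strongest summit of a region deciding membership it was -0.57 (permutation p = 0.183). Far peaks also had a lower percentile in their ABA lists (difference -5.35), and whether rank accounts for the difference was not tested.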

How the results depend on the processing

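The 6 comparisons were repeated under 14 alternatives each (15 for peak strength), and the 2 percentages under 13. The number of far regions per factor kept its direction and call in 12 of 14. The log2 ratio was -0.025 with lists of equal length, where it is near 0 by construction, 1.51 over family means (exact permutation p = 0.117) and 0.64 without DREB2A and HSFA6A. The far ratio minus the other ratio was 0.20 at 1000 bp (permutation p = 0.00203), -0.10 at 3000 bp, -0.071 at 5000 bp, -0.15 with peaks of a −log10 p of at least 32 and -0.062 with lists of equal length (permutation p = 0.0396). The share of a list, ABA minus mock, was 0.42 points at 1000 bp (permutation p = 0.011), -0.0051 at 3000 bp, 0.077 at 5000 bp (permutation p = 0.0122), -0.13 with lists of equal length, -0.38 with summits within 200 bp joined and -0.42 with the strongest summit deciding. The cause of these moves was not tested.

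Co-binding was 0.64 higher in far regions with the strongest summit deciding (permutation p = 0.00165), and lower, past the threshold, in the other 13, with differences from -0.36 with summits joined to -2.86 at 5000 bp. The percentile of peak strength differed by -0.65 with summits joined, -0.69 with the strongest summit deciding, -0.33 with each peak classed by its own summit and -3.18 with lists of equal length. Mock regions kept differed by -6.59 points with lists of equal length and -0.57 with the strongest summit deciding.

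The percent found under ABA alone, 26.9%, was 37.5% at 5000 bp, 22.8% with any gene of the table, 30.6% with −log10 p of at least 32, 13.9% with lists of equal length, 24.1% without GBF3, 21.8% with the strongest summit deciding and 23.9% without GBF3 and NFYB2. The percent with 1 factor, 39.5%, was 35.0% at 1000 bp, 45.6% at 3000 bp, 60.7% at 5000 bp, 33.1% with any gene, 33.9% with summits joined, 27.9% without GBF3, 31.4% with the strongest summit deciding and 26.5% without GBF3 and NFYB2.

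Leaving out each factor in turn changed none of the 6 calls. The lowest and highest values were 0.91 and 1.35 for the far ratio, 0.03 and 0.08 for far minus other, 0.07 and 0.17 for the share, -1.38 and -1.19 for co-binding, -5.63 and -4.90 for strength and -3.60 and -2.79 for kept regions. No paired analysis was possible because each list pools the libraries of its group, so replicate numbers are lost. For the same reason no library could be left out. Depth is unknown. The distances rest on 1 gene table, and genes it does not hold would bring far regions nearer.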

Other observations

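In 2 further gaps with 5 far regions each, chosen after their values were seen, regions of few and of many factors lay side by side. In the gap of 18.8 kb between AT1G71870 and SUC1, a sucrose transporter, the region chr1:27045981-27050721 held 18 factors under ABA and 16 under mock. Its strongest summit lay 5712 bp from SUC1. The 4 other regions of that gap held 4, 1, 11 and 1 factors under ABA, against 3, 0, 6 and 1 under mock. In the gap of 23.7 kb between WOX4, a homeodomain protein of the vascular cambium, and AT1G46696, the region nearest WOX4 (chr1:17240811-17242963, 3957 bp from it) held 11 factors under ABA and 8 under mock. A region towards the other end (chr1:17252396-17255162) held 14 and 9. The 3 regions between them held 1, 1 and 3 factors under ABA, against 1, 0 and 1 under mock. No test was made, since these gaps were picked by how many far regions they held.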
